A study of Mus musculus with 22 samples.

Results

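The Fc gamma receptors of the mouse and the chain through which they signal were followed in tumors grown with and without host antibody. The 6 genes were fixed by name: the activating receptors Fcgr1, Fcgr3 and Fcgr4, the inhibitory receptor Fcgr2b, the signaling chain Fcer1g and the neonatal Fc receptor Fcgrt. They were 6 of the 46882 genes in the deposited table, and each one had a level above the minimum used for testing. MC38 cells, a colon carcinoma line of C57BL/6 mice, were injected under the skin of the flank of 8- to 12-week-old hosts. RNA of 12 tumors was sequenced, 3 from wild-type (WT) C57BL/6N mice at day 23, 3 from WT mice at day 46, and 3 each at day 13 and day 23 from mice of the strain B6.129S7-Rag1tm1Mom/J, labelled RAG1-/-. Uninjected MC38 cells (labelled day 0) and normal skin of WT mice (labelled day 23) were sequenced in 2 samples each. RAG1 is needed to assemble the genes of B and T cell receptors, so RAG1-/- mice have no mature B or T lymphocytes and make no antibody, while their macrophages, neutrophils and NK cells remain. The mice got no treatment besides the cells, and the tumor RNA came from a piece of the whole tumor, host cells included.

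Antibody of the IgG class binds a target with its variable end and Fc gamma receptors with its constant end. Fcgr1 (CD64) holds free IgG with high affinity, Fcgr3 (the mouse CD16) binds IgG in complexes with low affinity, and Fcgr4 binds IgG2 subclasses with intermediate affinity. These activating receptors reach the surface and signal through the Fcer1g protein (FcRgamma), whose ITAM, a pair of tyrosines in the cytoplasmic tail, recruits the kinase Syk. Fcgr2b (CD32B) carries an ITIM, a tyrosine motif that recruits the phosphatase SHIP-1 and restrains the activating receptors on the same cell. Fcgrt (FcRn) pairs with beta-2 microglobulin, binds IgG inside acidic vesicles and returns it to the blood. Macrophages and monocytes carry all of these, neutrophils, mast cells and NK cells carry some of the activating receptors, B cells carry Fcgr2b, and interferon-gamma is known to raise Fcgr1 and Fcgr4 in them.

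The stretches that set the signaling chain and the inhibitory receptor apart are given as coding sequence, since they define which member activates and which inhibits. They come from the GENCODE transcripts ENSMUST00000079957.11 (bases 295 to 375, residues 59 to 85 of 86) and ENSMUST00000027966.13 (bases 1055 to 1108, residues 311 to 328 of 340), in the sense direction. The capitals mark the codons of the ITAM tyrosine boxes in Fcer1g and those of the ITIM in Fcgr2b.
Fcer1g: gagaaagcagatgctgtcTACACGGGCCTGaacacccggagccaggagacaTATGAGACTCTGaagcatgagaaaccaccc
Fcgr2b: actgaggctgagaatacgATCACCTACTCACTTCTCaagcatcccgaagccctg
The ITAM was searched as a repeated box of tyrosine, any pair of residues and leucine or isoleucine, and was found in the reading frame of 1 of the 6 genes, Fcer1g. The looser ITIM pattern, a tyrosine between hydrophobic residues or serine, had 1 match each in the last residues of Fcgr2b, Fcer1g and Fcgr4. In Fcer1g the match was not at the tyrosines of the ITAM. Outside Fcgr2b a match describes the letters and not a site in use.

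Fcgr2b, Fcgr4, Fcgr3 and Fcer1g lie together on chromosome 1 and the other 2 members elsewhere (GRCm38, the build also called mm10). Fcgr2b spans chr1:170958617-170976547 on the minus strand, Fcgr4 chr1:171018920-171029761 on the plus strand, Fcgr3 chr1:171051174-171064935 on the minus strand and Fcer1g chr1:171229572-171234365 on the minus strand. The gaps between these neighbours are 42.37, 21.41 and 164.6 kb. Fcgr1 lies at chr3:96282909-96293969 and Fcgrt at chr7:45092990-45103851, both on the minus strand. Of the last 500 bases of each transcript, where 3′ libraries place their reads, none of the 22-base words of Fcgr2b, Fcer1g and Fcgrt occurred in another gene, and 0.209% of those of Fcgr3, 1.67% of Fcgr1 and 6.47% of Fcgr4 did. The exons of Fcgr2b overlap the opposite-strand gene Gm38204 over 2.68% of their length and not in the last 500 bases.

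The 150 bases before the start of Fcgr4 and Fcgr1 are shown because these receptors are known to be raised by interferon-gamma, whose responsive genes are described further on. They are RefSeq promoter windows of GRCm38.p6, read in the direction of the gene, at chr1:171018776-171018925 (plus strand) and chr3:96293970-96294119 (minus strand). Capitals mark matches to the motifs searched on both strands.
Fcgr4: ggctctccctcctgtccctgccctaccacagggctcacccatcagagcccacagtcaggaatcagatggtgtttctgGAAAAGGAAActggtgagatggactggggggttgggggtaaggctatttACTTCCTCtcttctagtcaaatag
Fcgr1: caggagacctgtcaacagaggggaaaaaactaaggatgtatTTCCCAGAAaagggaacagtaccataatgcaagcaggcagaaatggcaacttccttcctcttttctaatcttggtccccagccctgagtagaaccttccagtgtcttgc
From 250 bases before to 50 after the start, the Fcgr4 window held an interferon-stimulated response element (ISRE, the letters GAAA on either side of any pair of bases) first met at base -73 and a reverse-strand PU.1 box (GAGGAAGT) at base -24. The Fcgr1 window held a gamma-activated site (GAS, TTCNNNGAA) at base -109. Of 32851 promoter windows, 3.44% held the ISRE, 3.2% the PU.1 box and 8.3% the GAS. The windows of the other 4 members held none of the 3 motifs, which says only that these letters are not there.

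Sequencing gave 5589151 to 26134241 reads on genes per library, and 3 reads, the limit a count of 0 allows, were worth 1.33 to 6.38 normalized counts. In this 3′ method each transcript gives about 1 read whatever its length, so normalized counts are set side by side between genes without a length correction. The labels were checked on lymphocyte genes. Igkc, the constant part of the kappa light chain, stood at 50.7 to 287 normalized counts in the WT tumors and at 0 to 1.77 in the RAG1-labelled ones, and Cd8a at 5.86 to 79.7 against 0 to 0.442. Rag1 itself had reads in all 6 RAG1-labelled tumors (1, 1 and 12 at day 13, and 4, 1 and 4 at day 23) and in 1 of 6 WT tumors (1 read). The Rag1tm1Mom allele removes part of the coding exon and leaves the 3′ end, so these 3′ reads do not check the label. The tumors are called RAG1-labelled throughout, since the deletion itself was not read. The 12 macrophage markers together came to 22679 to 33855 normalized counts in the WT tumors, 16615 to 28412 in the RAG1-labelled tumors, 12890 to 13388 in skin and 211 to 233 in MC38 cells. Each tumor came from a different mouse, while the labels do not say whether the MC38 samples came from separate cultures. The p-values with MC38 cells or skin rest on 1 spread fitted over all 16 libraries, 12 of them tumors. They therefore measure mainly the spread between tumors and say little about that between MC38 or skin samples.

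**Figure D1:**
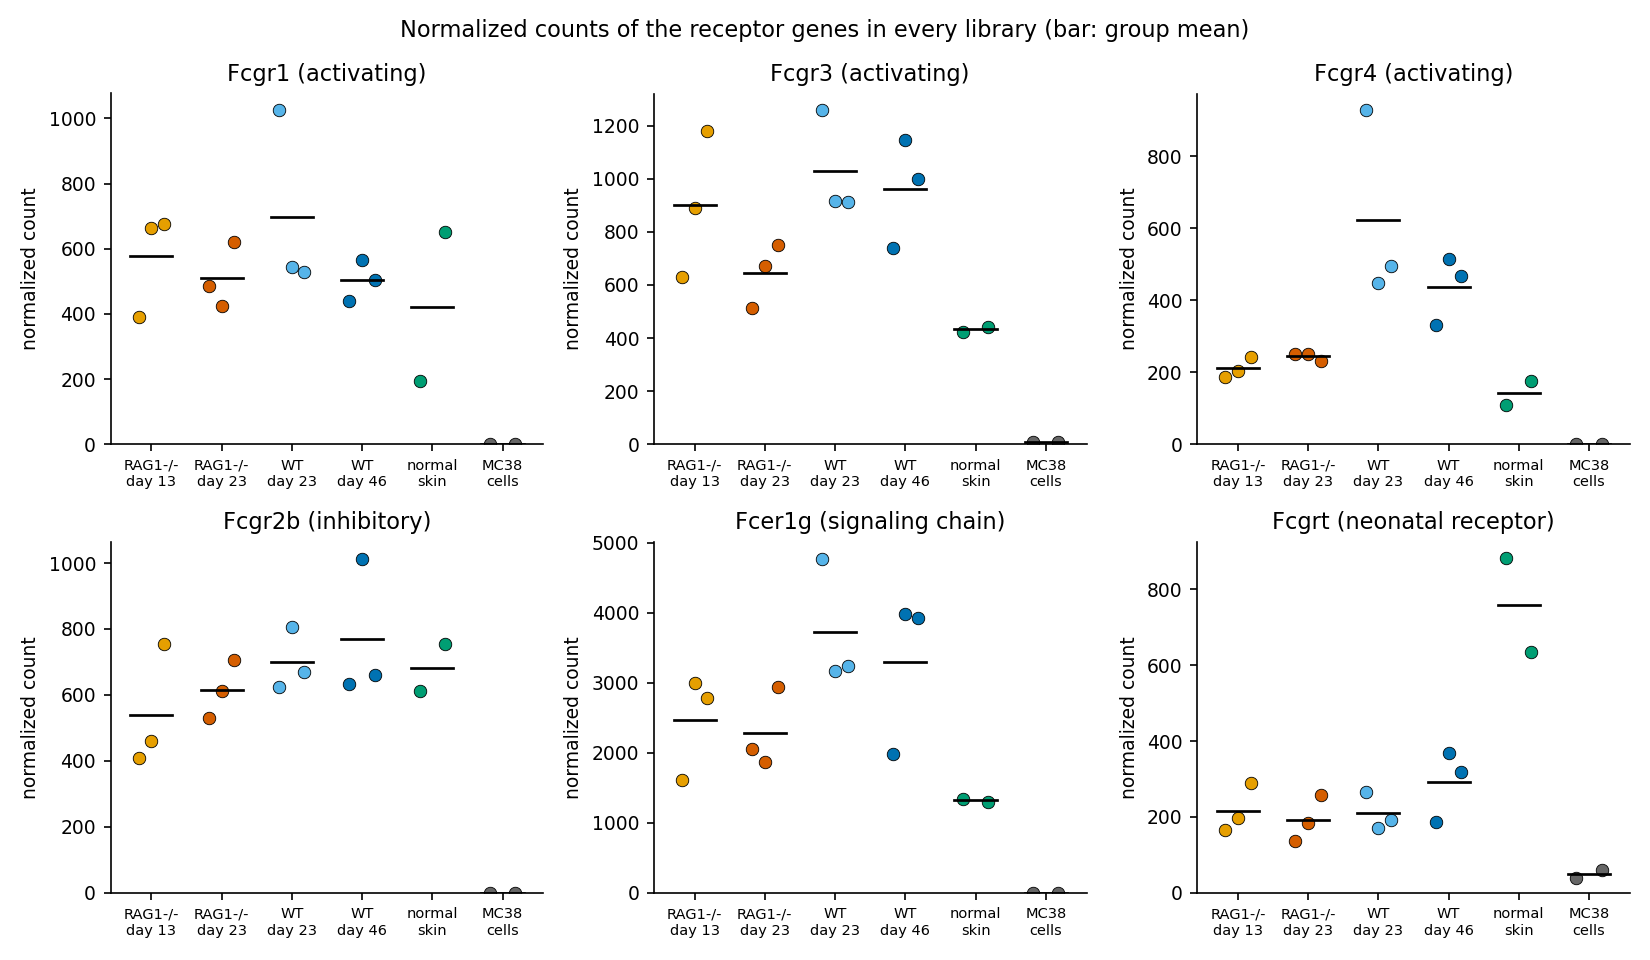
Normalized count (y axis, from 0) of each of the 6 genes in every library, by group (x axis), with a bar at the group mean. All 6 WT tumors sit above all 6 RAG1-labelled tumors for Fcgr4, Fcgrt is highest in skin, and 4 of the 6 genes are at 0 in MC38 cells.

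Over both days, Fcgr4 was the only member called and the only one whose levels did not overlap between WT and RAG1-labelled tumors. At an unadjusted p under 0.05 by limma there were 4 members, all higher in WT tumors. Whether Fcgr4 differed more than the other members was not tested. Fcgr4 stood at 187, 205 and 241 normalized counts in the RAG1-labelled tumors of day 13 and at 251, 251 and 231 in those of day 23. In the WT tumors it stood at 928, 448 and 494 at day 23 and at 330, 514 and 468 at day 46. The lowest WT tumor was thus above the highest RAG1-labelled tumor, and the RAG1-labelled tumors lay close to each other while the WT tumors were spread out. The means were 530 ± 205 (SD, n = 6) and 228 ± 26.3 (SD, n = 6). Over both days the log2 fold change was 1.15 (SE 0.18, 95% interval 0.77 to 1.53), a fold of 2.22, with an adjusted p of 0.00543 by limma over all 14746 genes tested. A two-sided exact permutation test on the 12 values gave p = 0.00216, the smallest it can give with 6 against 6, and was 1 of 12 exact tests run on the members, not adjusted for their number. Of all genes tested, 0.57% were called higher in WT tumors and 0.651% had WT tumors that lay wholly above the RAG1-labelled ones. Of 12 macrophage markers, 0 passed the test by limma (5 at an unadjusted p under 0.05, and 0 by edgeR or DESeq2), with a median log2 fold change of 0.30 against 0.01 for all genes. Per macrophage marker, Fcgr4 was higher by 0.96 on the log2 scale, 1.94-fold, a value given without a test. On this scale the closest tumors of the 2 groups nearly met, with the lowest WT tumor at -1.6205 and the highest RAG1-labelled tumor at -1.6271. In a piece of tumor, more cells of a type and more RNA per cell cannot be told apart. The days also differ between the groups, since the WT tumors were taken at day 23 and 46 and the RAG1-labelled ones at day 13 and 23. The hosts differ in strain too, as named at the start, at day 23 as well. Strain and the lack of lymphocytes and antibody cannot be told apart here.

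Over both days, the other activating receptors overlapped between WT and RAG1-labelled tumors. Fcgr1 stood at 389, 664 and 676 normalized counts in RAG1-labelled tumors of day 13 and at 484, 423 and 620 at day 23. In WT tumors it stood at 1025, 544 and 528 at day 23 and at 440, 567 and 504 at day 46, so a single WT tumor lay above the range of the RAG1-labelled ones. Its log2 fold change was 0.12 (SE 0.19, 95% interval -0.28 to 0.52, adjusted p = 0.858). Fcgr3 stood at 630, 888 and 1181 and at 512, 672 and 749 in RAG1-labelled tumors of day 13 and 23. It stood at 1258, 916 and 913 and at 741, 1147 and 999 in WT tumors of day 23 and 46, and the highest RAG1-labelled tumor exceeded 5 of the 6 WT tumors. The log2 fold change of Fcgr3 was 0.40 (SE 0.17, 95% interval 0.04 to 0.75, adjusted p = 0.366).

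The inhibitory receptor Fcgr2b did not pass the test either. It stood at 409, 459 and 754 normalized counts in RAG1-labelled tumors of day 13 and at 529, 613 and 705 at day 23. In WT tumors it stood at 625.5, 805 and 670 at day 23 and at 634, 1013 and 662 at day 46. Its log2 fold change of 0.36 (SE 0.17, 95% interval 0.01 to 0.71) had an adjusted p of 0.426. The groups overlapped, with the top RAG1-labelled tumor above 4 of the 6 WT tumors.

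Fcer1g, which all activating members need, was the most abundant of the 6 genes in every tumor and in both skin samples. It stood at 1612, 2999 and 2781 normalized counts in RAG1-labelled tumors of day 13 and at 2048, 1868 and 2942 at day 23. In WT tumors it stood at 4774, 3169 and 3245 at day 23 and at 1988, 3983 and 3933 at day 46. In 5 of 6 WT tumors it was above all RAG1-labelled tumors, and the exception was a WT tumor of day 46. The log2 fold change was 0.56 (SE 0.20, 95% interval 0.12 to 0.99), with an adjusted p of 0.288 by limma and an exact permutation p of 0.039 on the 12 values alone, so the difference was not called over all genes. Relative to the sum of the 3 activating receptors, Fcer1g differed by 0.10 on the log2 scale between the genotypes, less than the within-group SD of 0.22.

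Fcgrt was the lowest member in most tumors. It stood at 165, 197 and 289 normalized counts in RAG1-labelled tumors of day 13, at 136, 185 and 258 at day 23, at 267, 171 and 192 in WT tumors of day 23 and at 188, 367 and 318 at day 46. Its log2 fold change was 0.28 (SE 0.22, 95% interval -0.18 to 0.73, adjusted p = 0.674). B2m, the beta-2 microglobulin that FcRn and MHC class I share, was called higher in WT tumors, with a log2 fold change of 0.82 (SE 0.15, adjusted p = 0.0124), and 22 of 23 alternatives called it. Its normalized counts ran from 63953 to 81701 in WT and from 27619 to 69753 in RAG1-labelled tumors, so the groups overlapped. At day 23 alone its log2 fold change was 0.50 (SE 0.21, adjusted p = 0.38). Whether B2m differed more than Fcgrt was not tested.

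**Figure D2:**
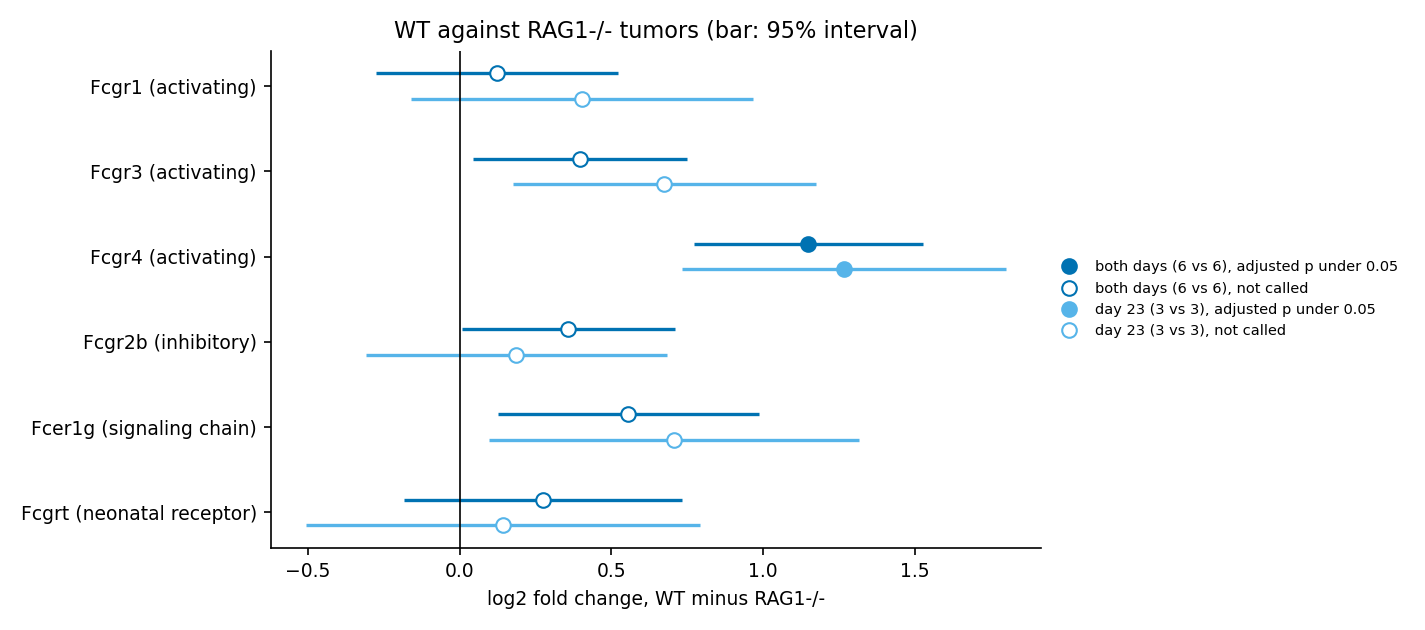
Log2 fold change of WT over RAG1-labelled tumors (x axis) for each member (y axis), for both days (6 against 6) and day 23 (3 against 3), with bars for the 95% interval. Filled points had an adjusted p under 0.05, which Fcgr4 alone had, at 1.15 and 1.27.

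At day 23, the day both genotypes share, all 6 members had a positive log2 fold change in WT over RAG1-labelled tumors and 1 was called. Fcgr4 had a log2 fold change of 1.27 (SE 0.25, 95% interval 0.73 to 1.80) and an adjusted p of 0.0484, just under the threshold, where 0.231% of all genes were called higher. An exact permutation test of 3 against 3 cannot go below 0.1, the value it gave. The call was lost without WT day 23 replicate 1, 928 normalized counts, where the log2 fold change was 0.94 and the adjusted p 0.174. It was also lost in edgeR (adjusted p = 0.0514) and kept in DESeq2 (adjusted p = 0.000377), and its adjusted p ran from 0.000377 to 0.216 over 17 alternatives, 4 of which called it. Fcgr3 and Fcer1g also had WT tumors wholly above RAG1-labelled tumors at day 23, with log2 fold changes of 0.68 (SE 0.23, adjusted p = 0.281) and 0.71 (SE 0.29, adjusted p = 0.369), but so had 8.5% of all genes. Fcgr1 (0.40, SE 0.26), Fcgr2b (0.19, SE 0.23) and Fcgrt (0.14, SE 0.30) overlapped between the groups at that day.

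No member passed the test between days. From day 23 to day 46 in WT tumors the log2 fold changes ran from -0.46 for Fcgr4 (SE 0.25, adjusted p = 0.646) and -0.41 for Fcgr1 to 0.44 for Fcgrt (SE 0.30, adjusted p = 0.716). From day 13 to day 23 in RAG1-labelled tumors they ran from -0.45 for Fcgr3 (SE 0.23, adjusted p = 0.472) to 0.23 for Fcgr2b. The difference of these time changes was -0.67 for Fcgr4 (SE 0.36, adjusted p = 0.632) and 0.61 for Fcgrt (SE 0.43, adjusted p = 0.742). limma called 0% of all genes in each of the 3 comparisons, with 1261, 1722 and 1279 genes at an unadjusted p under 0.05 and 0 members among them. edgeR called 0 genes in each, and DESeq2 called 43, 206 and 58 genes and 0 members.

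The make-up of the receptors was then described by ratios within a library, with no test. Fcgr4 relative to Fcgr2b ran from -0.98 to 0.57 on the log2 scale in the WT tumors and from -1.64 to -1.07 in the RAG1-labelled tumors, so the groups did not overlap, and the mean difference was 0.79, 1.73-fold. In WT day 23 replicate 1 Fcgr4 exceeded Fcgr2b, and in the other 11 tumors it was below it. Over both days, Fcgr1 relative to Fcgr2b differed by -0.24 and Fcgr3 relative to Fcgr2b by 0.04, each less than the within-group SD (0.42 and 0.26). The sum of the activating receptors over Fcgr2b had a mean of 1.52 ± 0.45 (SD, n = 6) in WT and 1.42 ± 0.30 (SD, n = 6) in RAG1-labelled tumors, a difference of 0.09 against a within-group SD of 0.33. At day 23 alone, Fcgr3 relative to Fcgr2b ran from 0.19 to 1.01 in WT and from -0.05 to 0.13 in RAG1-labelled tumors, without overlap. The sum ran from 1.246 to 2.359 and from 1.137 to 1.239 at that day, so the groups nearly met. RAG1-labelled tumors of day 13 stood higher, at 0.62 to 0.95 for Fcgr3 and 1.48 to 1.94 for the sum. In skin the sum stood lower, at 0.25 and 0.75.

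**Figure D3:**
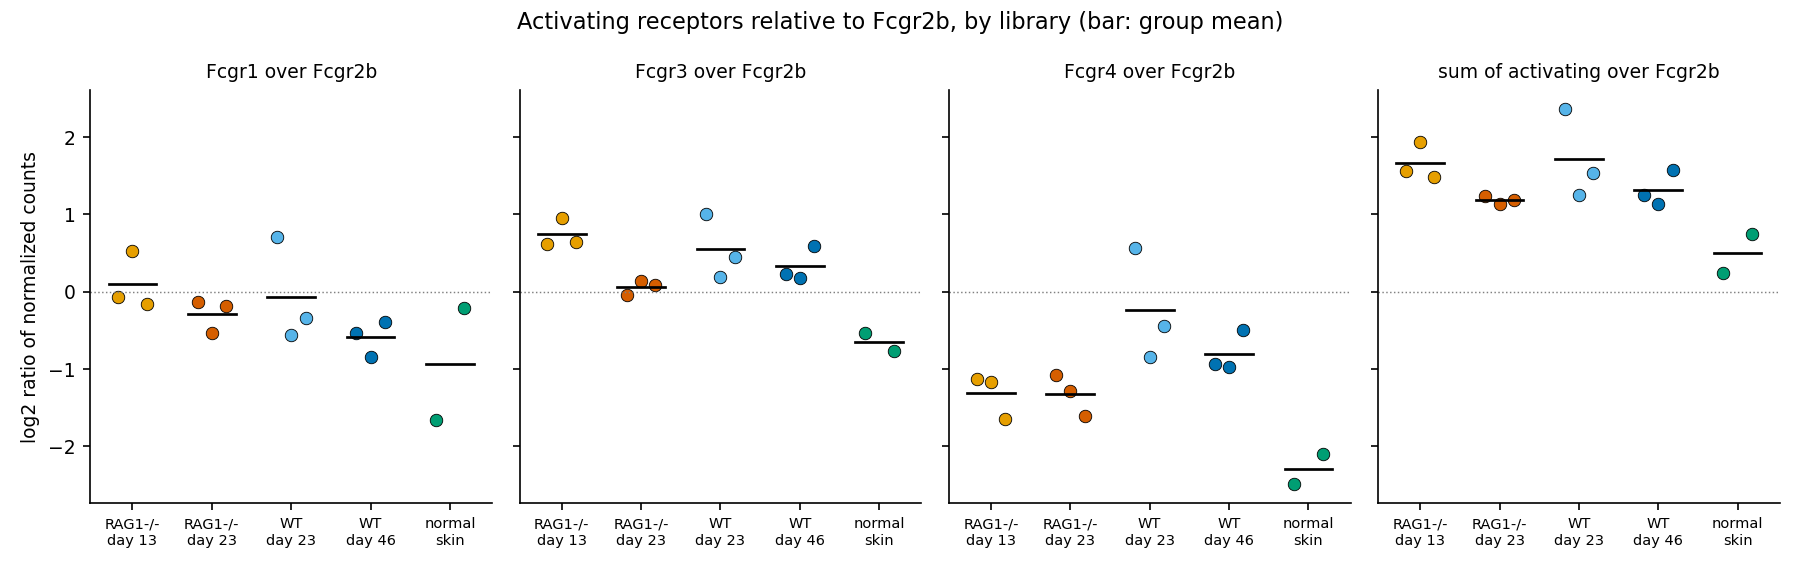
Log2 ratio of each activating receptor, and of their sum, to Fcgr2b (y axis) in every tumor and skin library, by group (x axis), with a bar at the group mean. The ratio of Fcgr4 to Fcgr2b lies between -1.64 and -1.07 in RAG1-labelled tumors and between -0.98 and 0.57 in WT tumors. In the other panels the genotypes overlap over both days, though not at day 23 alone for Fcgr3 and the sum.

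The rest of the pathway was read from gene lists, by counts and medians over both days. Of 17 ITAM kinases and adapters tested (such as Syk, Lyn, Btk and Plcg2), 0 were called by limma, 3 had an unadjusted p under 0.05 and 0 were called by edgeR or DESeq2, with a median log2 fold change of 0.03. The smallest adjusted p was that of Lat2, an adapter beside Syk, with a log2 fold change of 0.45 (SE 0.15, adjusted p = 0.25). Of 12 genes of the inhibitory arm, which holds SHIP-1 (Inpp5d), SHP-1 (Ptpn6) and other ITIM receptors, 0 were called (1 unadjusted, 0 by edgeR or DESeq2), with a median of 0.13. Of 15 genes of phagocytosis and the oxidase, 0 were called (3 unadjusted, 0 by edgeR or DESeq2), with a median of 0.21 and Cybb, the catalytic oxidase subunit, at 0.47 (SE 0.16, adjusted p = 0.263). Of 8 tested partners of FcRgamma and of the related chain DAP12, 0 were called (1 unadjusted, 0 by edgeR or DESeq2), with Trem2, a DAP12 partner of macrophages, at 0.51 (SE 0.19, adjusted p = 0.302). The medians stand beside one of 0.01 for all genes and 0.38 for the 6 members.

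The list of other Fc receptors had 4 genes tested and includes B2m, which is a partner of FcRn and not a receptor. B2m was higher and Fcrls, an Fc receptor-like gene of macrophages, was lower in WT tumors. Fcrls stood at 146 to 516 normalized counts in WT and 430 to 1148 in RAG1-labelled tumors, with a log2 fold change of -1.16 (SE 0.24, adjusted p = 0.037), and 8 of 23 alternatives called it. Of 6 genes tested in the antibody chain list, which holds the constant chains and the joining chain Jchain, 4 were called higher. They were Igkc (6.80, SE 0.44), Igha (4.68, SE 0.49), Ighg2c (3.95, SE 0.66) and Jchain (3.61, SE 0.63), with adjusted p from 7.6e-07 to 0.0115 by limma. RAG1-labelled tumors were at or near 0 for these, so the fitted values depend on the pseudocount. Both IgG2 chains of C57BL/6 mice were low even in WT tumors, with Ighg2c at 1.58 to 46.9 normalized counts against 0 to 0.442 in RAG1-labelled tumors, and Ighg2b, whose level was too low to be tested, at 0 to 21.3 against 0 to 1.31. Ighm had reads in all 12 tumors, at 25.4 to 237 normalized counts in WT and 29.8 to 147 in RAG1-labelled tumors, and was not called (adjusted p = 0.619).

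Of 17 interferon-gamma responsive genes tested, 6 were called higher in WT tumors, 0 lower and 16 had a positive log2 fold change, with a median of 1.25. At an unadjusted p under 0.05 there were 15, edgeR called 7 higher and DESeq2 12. Cxcl9, a chemoattractant, had a log2 fold change of 4.72 (SE 0.31, adjusted p = 7.6e-07) and Psmb9 of the immunoproteasome 1.5 (SE 0.18, adjusted p = 0.000583). Tap1 of peptide transport had 0.92 (SE 0.16, adjusted p = 0.0115) and Cd274, which encodes PD-L1, 1.15 (SE 0.21, adjusted p = 0.0124). Cd74, the invariant chain of MHC class II, was called higher as well. Summed over the list, WT tumors held 10662 to 44999 and RAG1-labelled tumors 7888 to 14421 normalized counts, and the library with the highest sum, WT day 23 replicate 1, was also the one with the highest Fcgr4. The part of these genes in the difference of Fcgr4 was not tested. Markers of other cells that carry these receptors were read too. Of 4 NK genes tested 0 were called by limma (1 unadjusted, 0 by edgeR, 1 by DESeq2), of 6 neutrophil genes 0 (1 unadjusted, 0 by edgeR or DESeq2), of 6 mast cell genes 0 (0 unadjusted, 0 by edgeR or DESeq2), and of 3 dendritic cell genes 0 (1 unadjusted, 0 by edgeR, 1 by DESeq2). Over both days the summed levels of these lists overlapped between WT and RAG1-labelled tumors. They were 134 to 324 against 113 to 224 for NK and 49.4 to 140 against 56.3 to 258 for neutrophils. For mast cells they were 30.1 to 370 against 28.8 to 221, and for dendritic cells 556 to 1217 against 360 to 668. MC38 cells held 190 to 235 over the NK list, all from Eomes, so that sum does not measure NK cells alone. The 3 other NK genes tested had positive log2 fold changes, up to 2.13 for Nkg7 (SE 0.52, adjusted p = 0.087, limma). At day 23 the dendritic sums did not overlap, at 777 to 1217 against 360 to 668, while the other sums did. Itgax of the dendritic list had a log2 fold change of 1.17 there (SE 0.24, adjusted p = 0.0571, limma). Of 4 T cell genes 3 were called higher, with summed levels of 18.6 to 188 against 2.22 to 20.01 and Cd3e and Cd3g at 0 in all RAG1-labelled tumors. Of 2 B and plasma cell genes 1 was called higher, Jchain, the same gene that is counted among the antibody chains. The sums of that list were 27.3 to 94.6 against 6.67 to 33.6, with Cd79a at 0 in all RAG1-labelled tumors. Of 6 endothelial genes 0 were called, and of 5 epidermal genes 0 (0 unadjusted and 0 by edgeR or DESeq2 in both lists).

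**Figure D4:**
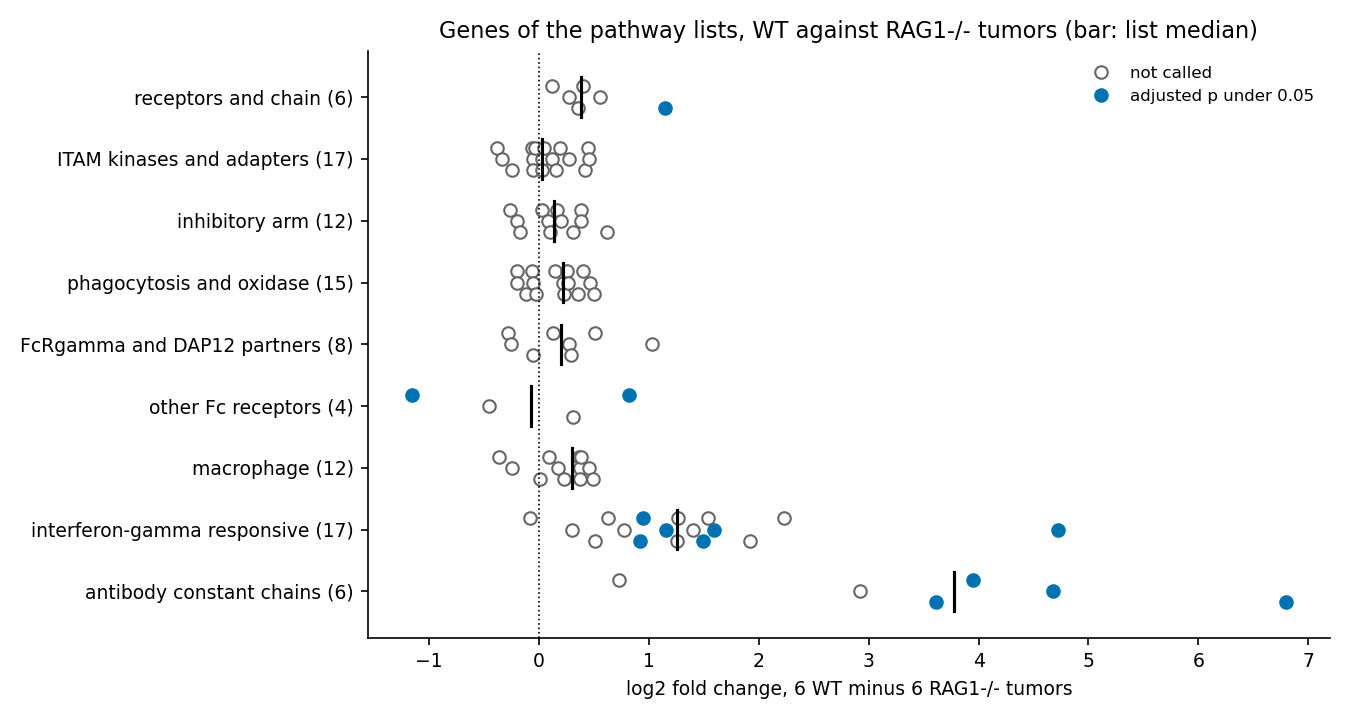
Log2 fold change of WT over RAG1-labelled tumors, both days (x axis), of each tested gene in 9 lists (y axis, number tested in brackets), with a bar at the list median and filled points for an adjusted p under 0.05. The kinase, inhibitory, phagocytosis and partner lists hold open points only, while 4 antibody chains and 6 interferon-gamma responsive genes are filled.

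MC38 cells without a host held almost none of the receptor transcripts. Fcgr1, Fcgr4, Fcgr2b and Fcer1g had 0 reads in both MC38 samples, which allows up to 2.93 normalized counts in the shallower of them. Fcgr3 had 10 and 9 reads (8.56 and 8.80 normalized counts) and Fcgrt 46 and 62 reads (39.4 and 60.6). Against RAG1-labelled and WT tumors, all 6 members were called higher in tumors, where 14.2% and 16.7% of 16158 genes tested were. Taken against that limit, the mean of Fcer1g was at least 810-fold higher in RAG1-labelled and 1199-fold higher in WT tumors, Fcgr2b at least 197-fold and 251-fold, Fcgr1 at least 185-fold and 205-fold, and Fcgr4 at least 77.6-fold and 181-fold. Fcgr3 was 77.1-fold (95% interval 55.1 to 108) and 102-fold (72.6 to 142) higher, and Fcgrt 4.0-fold (2.52 to 6.33) and 4.84-fold (3.06 to 7.66). Of the 12 macrophage markers 12 were called higher in both kinds of tumor, and Adgre1, Mrc1 and Aif1 were at 0 in MC38 cells. Fcgrt had the highest level of the 6 members in the MC38 samples.

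Against normal skin, WT tumors held more Fcgr4 (log2 fold change 1.86, SE 0.28, adjusted p = 3.49e-05), Fcer1g (1.36, SE 0.28, adjusted p = 0.000583) and Fcgr3 (1.18, SE 0.23, adjusted p = 0.000349), where 23.7% of genes were called higher. They held less Fcgrt (-1.64, SE 0.31, adjusted p = 0.000311), where 34.5% were called lower. The skin samples held 109 and 176 normalized counts of Fcgr4, 1345 and 1303 of Fcer1g, 423 and 442 of Fcgr3, and 883 and 635 of Fcgrt, so no tumor reached the Fcgrt level of skin. RAG1-labelled tumors moved the same way, with Fcer1g at 0.80 (SE 0.28, adjusted p = 0.0204), Fcgr3 at 0.78 (SE 0.23, adjusted p = 0.0074), Fcgr4 at 0.71 (SE 0.28, adjusted p = 0.0389) and Fcgrt at -1.91 (SE 0.31, adjusted p = 6.83e-05), where 24.7% of genes were called higher and 36.1% lower. These comparisons share the skin samples. In RAG1-labelled tumors the calls of Fcgr3 and Fcer1g were lost without either skin sample (adjusted p of 0.069 and 0.0522, and of 0.111 and 0.135), and that of Fcgr4 without skin replicate 1 (adjusted p = 0.412), so 1 of the 4 members, Fcgrt, remained called there. Of 19 alternatives 13 called Fcgr4 in this comparison.

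Fcgr2b in skin, 612 and 753 normalized counts, lay within the tumor range, with a log2 fold change of 0.09 (SE 0.24, adjusted p = 0.76) for WT and -0.27 (SE 0.24, adjusted p = 0.344) for RAG1-labelled tumors, the latter turning to 0.14 when libraries were scaled to the same total. Fcgr1 differed between the skin samples, at 193 and 650 normalized counts, and was not called against either kind of tumor (0.70 and 0.58, SE 0.37, adjusted p = 0.115 and 0.186). Without skin replicate 1 its log2 fold change was -0.17 for WT and -0.29 for RAG1-labelled tumors, and without skin replicate 2 it was called higher, at 1.58 (adjusted p = 0.00446) and 1.45 (adjusted p = 0.00667). It was also called with libraries scaled to the same total, at 1.10 (adjusted p = 0.0226) and 0.98 (adjusted p = 0.0369). The skin sample with the high Fcgr1 was also the one with more neutrophil marker reads, 14505 against 2071 normalized counts over 7 genes, and the part of these in the difference was not tested. Epidermal keratin and filaggrin genes took 287833 to 297410 normalized counts in skin and at most 1720 in a tumor. The median of all genes was -0.17 for WT and -0.20 for RAG1-labelled tumors against skin on the deposited scale, and 0.23 and 0.21 with equal totals, and the members are read relative to that. The genes called higher and lower were 3833 and 5571 for WT tumors and 3999 and 5829 for RAG1-labelled tumors on the deposited scale, against 5635 and 4036, and 5764 and 4334, with equal totals. MC38 cells held less than skin of all 6 members, where 37.9% of genes were called lower (3587 higher and 6120 lower, or 5094 and 4845 with equal totals). Fcgr3 had a log2 fold change of -5.49 (SE 0.28) and Fcgrt of -3.91 (SE 0.38), and the 4 members without reads were at least 48.5-fold (Fcgr4) to 451-fold (Fcer1g) lower.

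**Figure D5:**
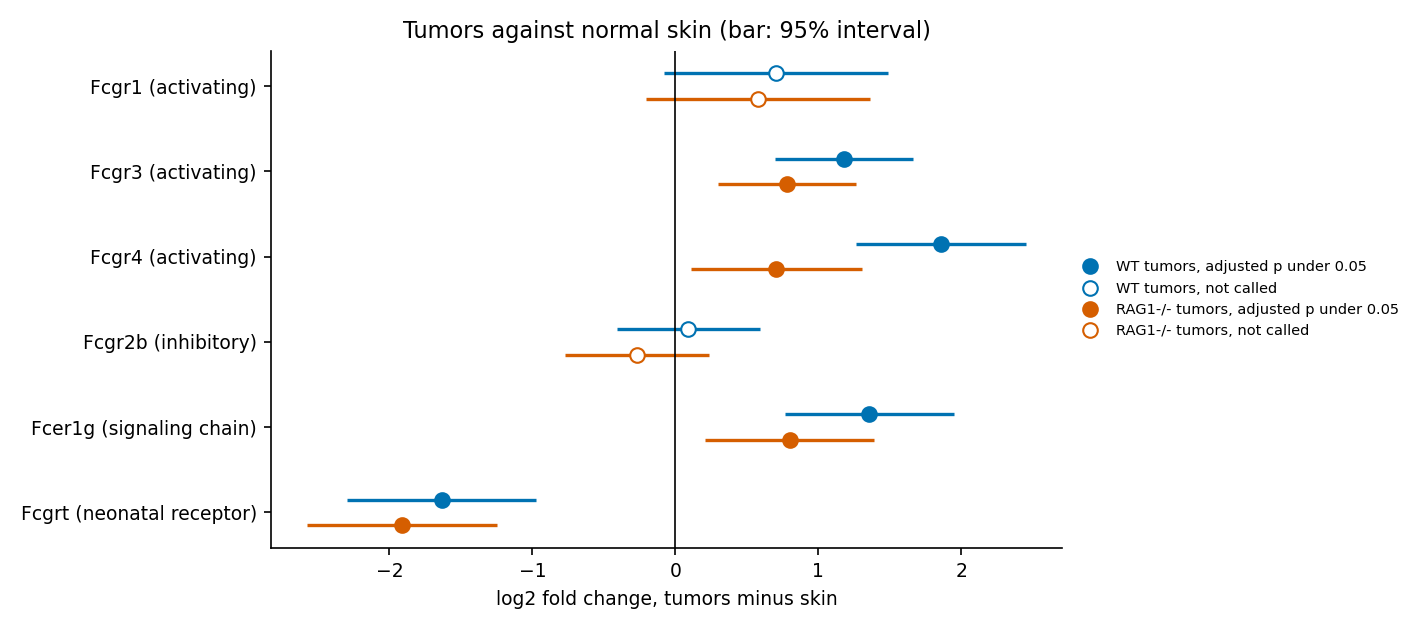
Log2 fold change of WT and of RAG1-labelled tumors over normal skin (x axis) for each member (y axis), with bars for the 95% interval and filled points for an adjusted p under 0.05. Fcgr4 lies at 1.86 in WT and 0.71 in RAG1-labelled tumors, and Fcgrt below 0 in both.

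By mean level the groups ordered as follows. Fcgr4 ran from 623 ± 265 (SD, n = 3) in WT day 23 and 437 ± 95.7 in WT day 46, 245 ± 11.6 in RAG1-labelled day 23, 211 ± 27.5 in RAG1-labelled day 13, 142 ± 47.7 (n = 2) in skin and 0 in MC38 cells. The neighbours that share a genotype did not pass the tests above, and WT day 46 against RAG1-labelled day 23 was not tested alone. Fcer1g ran from 3729 ± 905 in WT day 23 to 3301 ± 1138 in WT day 46, 2464 ± 746 and 2286 ± 575 in RAG1-labelled day 13 and 23, and 1324 ± 29.8 in skin. Fcgr3 kept that order, from 1029 ± 198 to 962 ± 206, 900 ± 276, 645 ± 121 and 433 ± 13.5. In the comparisons between tumors limma called no member but Fcgr4, so the order of the tumor means of Fcer1g and Fcgr3 is a description. The tumor means ran from 504 to 699 for Fcgr1, from 540 to 770 for Fcgr2b and from 193 to 291 for Fcgrt.

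Over the 12 tumors the members were correlated with each other to different extents, given as a description since the tumors share genotype, day and macrophage content. Pearson's r of log2 values was 0.84 for Fcer1g with Fcgr3, 0.77 with Fcgr4 and 0.76 with Fcgr1, and 0.24 for Fcgr1 with Fcgr2b, the lowest pair. Among 12069 genes whose mean over the tumors reached 20 normalized counts, the nearest to Fcgr4 were Gm4841 (r = 0.93), Gbp8 (r = 0.93) and Il18bp (r = 0.91), the nearest to Fcgr1 were Spi1 (r = 0.93), Ckap4 (r = 0.91) and Aif1 (r = 0.88), and the nearest to Fcgr3 were Ccdc88b (r = 0.96), Sssca1 (r = 0.94) and Entpd1 (r = 0.91). Spi1 encodes PU.1, a transcription factor of macrophages, and Gbp8 a guanylate-binding protein. Fcer1g was nearest to Camk2n2 (r = 0.94), C1qc (r = 0.93) and Sp110 (r = 0.93), Fcgr2b to Vps39 (r = 0.87), Sdc3 (r = 0.86) and Bola3 (r = 0.85), and Fcgrt to Zdhhc18 (r = 0.91), Man1c1 (r = 0.91) and Hs1bp3 (r = 0.89). These are the top 3 of many genes over few tumors.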

How the data were processed

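Gene expression was measured with QuantSeq 3′ libraries on an Ion Proton in 16 libraries. The authors trimmed reads with Cutadapt and Trimmomatic, dropped those under 22 nucleotides, aligned to mm10 with STAR and the unmapped rest with Bowtie2, kept primary alignments, removed ribosomal RNA and counted with HTSeq. The deposited signal is the count per gene divided by DESeq2 size factors by the authors. Strand, annotation and tool versions are not given in the sources used here. If strand was not used, reads of overlapping antisense genes cannot be told apart.

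In every library 100% of values were whole multiples of 1 read (within 0.01 reads), so the reads were recovered. No molecular identifiers were used, so floors cover counting error only. The main test was limma 3.58.1 (R 4.3.3) with a trend on log2(normalized count + 1), two-sided, on genes whose mean reached 5, with Benjamini-Hochberg adjustment over all genes and a threshold of 0.05. Fold changes are on the log2(normalized count + 1) scale, which understates low genes. The 12 tumors were fitted together for comparisons of tumors (4 groups), and all 16 libraries (6 groups) for those with MC38 cells or skin. Exact permutation tests used SciPy 1.17.1. edgeR 4.0.16 and DESeq2 1.42.0 on recovered reads, other pseudocounts (0.1, 5), filters, scalings, no trend, the replicate block, other libraries in the fit and each library left out were alternatives.

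The members and lists were chosen with earlier results of these data known. Named were the members, up to 4 genes per list by smallest adjusted p and the 3 genes nearest to each member; Cd74, Ighm and Ighg2b were named after their values were seen. "Per macrophage marker" is log2(count + 1) minus the mean of the 12 macrophage markers on that scale. Replicate numbers mark different mice, and over the 4 tumor groups same-numbered tumors did not deviate together throughout (r from -0.236 to 0.246 over 18 pairs). A second table, of 6 treated tumors, was not used, because its 6 columns match no sample label. Positions and transcripts come from GENCODE (GRCm38), promoters from RefSeq (GRCm38.p6). All 6 symbols matched. Protein sequences were not used here.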

Additional observations from a re-analysis of the deposited data

Results flagged for a closer look

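Fcgr1 at 1025 and Fcgr4 at 928 normalized counts, both in WT day 23 replicate 1, stood apart from the other 5 WT tumors, with a gap to the next tumor of 78.3% and 69.2% of the group's range. Both values come from the same tumor, and chance sets apart about 1 in 20 groups this way, with 12 groups examined. That tumor also had the highest sum of macrophage markers (33855) and of interferon-gamma responsive genes (44999) among the WT tumors. Without it the log2 fold change of Fcgr4 over both days was 0.99 (adjusted p = 0.00857, limma), and that of Fcgr1 was -0.03 (adjusted p = 0.965).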

How the results depend on the processing

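Over both days, Fcgr4 was called in 23 of 23 alternatives (log2 fold change 0.99 to 1.25, adjusted p 2.69e-07 to 0.0443), and none of these called another member. At day 23 the members called went from 1 to 0 with a pseudocount of 0.1, no filter, the same total, the same upper quartile, no trend, edgeR, the replicate block and the other libraries in the fit. Leaving out 1 tumor gave 0 to 1 (0 without WT day 23 replicate 1 or 3 or any of the RAG1-labelled ones). Of all genes, 41 were called at day 23, with 15 to 239 over the alternatives (22 in edgeR, 239 in DESeq2, 5 to 60 with 1 tumor left out), and 105 over both days, with 48 to 285 (111 in edgeR, 285 in DESeq2, 65 to 171). Against skin, RAG1-labelled tumors had 1 to 4 members called with 1 library left out, 1 without skin replicate 1. With the same upper quartile, Fcgr3 from day 23 to 46 in WT turned to 0.000425. In the difference of time changes Fcgr2b turned to 0.0308 and 0.0489 and Fcer1g to 0.0168 and 0.0348 (same total, same upper quartile), and Fcgr2b in RAG1-labelled tumors against skin to 0.14 (same total). None of these was called, and the cause was not tested.

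Leaving out 1 library changed the sign of values not called with all libraries. The ranges were -0.0834 to 0.375 for Fcgrt at day 23, and -0.0336 to 0.206 for Fcgr1 over both days. From day 23 to 46 in WT they were -0.242 to 0.0738 for Fcgr3, -0.39 to 0.11 for Fcer1g and -0.10 to 0.23 for Fcgr2b. From day 13 to 23 in RAG1-labelled tumors they were -0.366 to 0.0819 for Fcer1g and -0.406 to 0.0523 for Fcgrt. For the difference of time changes they were -0.422 to 0.0564 for Fcgr1, -0.385 to 0.0556 for Fcgr2b and -0.30 to 0.20 for Fcer1g. Against skin they were -0.17 to 1.58 for Fcgr1 and -0.0583 to 0.241 for Fcgr2b in WT tumors and -0.29 to 1.45 for Fcgr1 in RAG1-labelled ones.

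With the replicate block, Fcgr4 at day 23 kept its log2 fold change of 1.27 with an adjusted p of 0.069, so 0 members were called. In RAG1-labelled tumors against skin it had an adjusted p of 0.0607, so 3 members were called. The block changed no other call of a member. The numbers mark different mice and were not taken as pairs: 4 of 18 same-numbered tumor pairs had r over 0.1, and 6 of 18 correlated best with their own number. Of these 4, 3 were the pairs of WT day 46 with RAG1-labelled day 23 (r of 0.105, 0.208 and 0.135), groups that were not compared alone. The paired groups of the day 23 comparison had r from -0.0949 to 0.0299.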
